A study of Mus musculus with 4 samples.

Results

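The Sp100-like cluster of mouse chromosome 1 comprises 9 of the 21774 protein-coding genes in the gene table: A530032D15Rik, Gm38510, Gm7609, C130026I21Rik, Gm7592, Gm2427, Sp110, Sp140 and Sp100. These genes were chosen by position and as a multi-copy cluster, from earlier results in which very wide IgD peaks covered this stretch. The peak values below are therefore a description. The region taken was the 9 genes with 50000 bp on either side, chr1:85038139-85759998 on mm10, a length of 722 kb. It was touched by 12 of the 11375 peaks in the first list and by 10 of the 40628 peaks in the second.

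The study used chromatin immunoprecipitation followed by sequencing, which recovers DNA bound to an antibody target, on wild-type mouse pro-B cells sorted from bone marrow as B220+, CD43+ and IgM-, fixed with formaldehyde and sonicated. Antibody against mouse IgD was used in 2 libraries and mouse IgG, the isotype control, in 2 others; strain, sex, age and the number of mice behind each library are not in the labels. Peaks of IgD1 over IgG1 form the list of pair 1, and those of IgD2 over IgG2 the list of pair 2. IgD is best known as a membrane antigen receptor of mature B cells, a later stage than the pro-B cell. The lists hold no gene expression, so the sorted cell type could not be checked against its markers, and without an IgG peak list or total read numbers no test between antibodies could be run.

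Sp100, Sp110 and Sp140 encode related nuclear proteins that belong to the speckled protein family and are induced by interferon. Sp100 is a constituent of PML nuclear bodies, the subnuclear structures organised by the PML protein. Family members combine an N-terminal assembly domain with chromatin-binding modules such as the SAND domain, the PHD finger and the bromodomain. Mouse Sp110, also listed as Ipr1, is known from resistance of macrophages to intracellular bacteria, and Sp140 is known as a repressor of inflammatory gene programmes in immune cells. In the mouse the family lies beside a stretch of duplicated, Sp100-related sequence whose copy number varies among mice.

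In both pairs, 1 very wide IgD peak spanned the 4 members at the lower end of the cluster and reached into Gm7592. In pair 1 it ran from 84995185 to 85499845, a width of 505 kb. In pair 2 it ran from 84978288 to 85419816, a width of 442 kb. The blocks shared 425 kb, which was 84.1% of the pair 1 block and 96.2% of the pair 2 block. Their lower ends were 16.9 kb apart and their upper ends 80.0 kb apart.

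The fold enrichment at a peak's summit, the authors' peak caller value for IgD over the local background, was 12.8 for the pair 1 block and 24.1 for the pair 2 block. A block carries 1 such value for its whole width, so it does not say which gene inside was more strongly enriched. The pair 1 summit, at 85250960, lay inside C130026I21Rik and the overlapping Gm38510. The pair 2 summit, at 85144395, lay 107 kb away and in no annotated gene. The -log10 q was 85.1 for the pair 1 block and 95 for the pair 2 block.

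**Figure D1:**
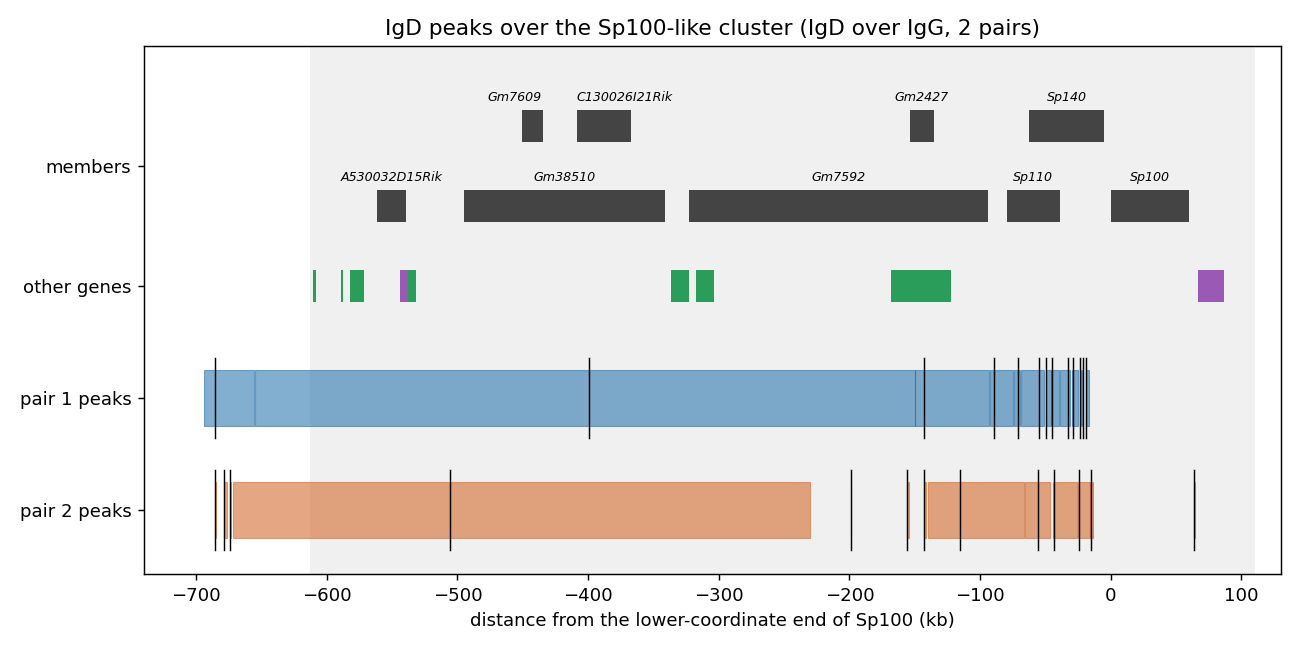
Map of the cluster, with distance in kb from the lower-coordinate end of Sp100 on the horizontal axis. Dark bars are the 9 members, green bars pseudogenes, purple bars other genes, blue and orange bars the peaks of pair 1 and pair 2, black ticks their summits, and grey shading the region with its 50000 bp flanks; the chain of peaks stops inside Sp140 in both lists, and Sp100 has no peak. Mir8096, at 127 bp, is too short to be seen.

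The 4 members at the lower end of the cluster lay wholly inside the main block of both lists. A530032D15Rik (85088139 to 85110297) is 22.2 kb long, Gm38510 (85155201 to 85309015) 154 kb, Gm7609 (85199592 to 85215398) 15.8 kb and C130026I21Rik (85241286 to 85282883) 41.6 kb. Gm7609 and C130026I21Rik lie entirely within the span of Gm38510, so the 4 genes are not 4 separate stretches. These are provisionally named gene models and no role is assigned to them here. Their whole spans were covered in each list.

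The next 2 members differed between the pairs. Gm7592 (85326832 to 85555681) spans 229 kb and contains the whole of Gm2427 (85496430 to 85514604, 18.2 kb); both are also provisional models. Gm7592 was 99.8% covered in pair 1 and 62.4% covered in pair 2. Gm2427 was 96.9% covered in pair 1 and 37.8% covered in pair 2. The pair 1 peaks left 560 bp of Gm7592 uncovered and the pair 2 peaks left 86084 bp uncovered.

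The difference arose where the pair 2 block ended. Beyond 85419816, pair 2 had 3 narrow peaks, of 704 bp (fold 3.56), 1122 bp (fold 4.59) and 2119 bp (fold 4.37), before its second wide peak began at 85509846. Pair 1 continued with a 56.5 kb peak from 85500406 to 85556856 (fold 6.41), 560 bp after its main block. In this stretch the summit of that pair 1 peak, at 85507027 inside Gm2427, lay 42 bp from the summit of the 2119 bp peak of pair 2, the closest match of the cluster. The second wide peak of pair 2 was 73.6 kb wide (85509846 to 85583457, fold 9.10) and ran from Gm2427 into Sp110.

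Sp110 (gene ID 109032, 85570735 to 85610850, 40.1 kb, read from the minus strand) was covered to a like extent in both lists, through several peaks of varied fold. Coverage was 91.8% in pair 1, from 5 peaks with folds of 2.44 to 7.73, and 92.4% in pair 2, from 3 peaks with folds of 3.06 to 9.10. The peaks with the highest of these folds ranked 20 of 11375 by fold in pair 1 and 129 of 40628 in pair 2. Their summits lay outside Sp110. The bases covered in both lists made up 85.5% of the gene.

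Sp140 (gene ID 434484, 85587491 to 85645040, 57.6 kb, plus strand) was covered in part. It was 68.0% covered in pair 1, from 8 peaks with folds of 2.15 to 7.16, and 79.3% covered in pair 2, from 4 peaks with folds of 2.93 to 5.24. Sp110 and Sp140 share 23.4 kb, so peaks in the shared stretch count for both genes. Inside it the strongest peaks of the lists had summits 556 bp apart, at 85594731 in pair 1 (fold 7.16) and at 85594175 in pair 2 (fold 5.24).

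The chain of peaks ended inside Sp140 in both lists, at 85633559 in pair 1 and at 85636637 in pair 2, 3078 bp apart. The last 11.5 kb of Sp140 in pair 1 and 8.40 kb in pair 2, at the gene's 3′ end, were uncovered. Folds were low near this edge. The last peak of pair 1 was 2593 bp wide with a fold of 2.15 (-log10 q 1.42), and that of pair 2 was 2210 bp wide with a fold of 2.93 (-log10 q 2.82).

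Sp100 itself (gene ID 20684, 85649948 to 85709998, 60.1 kb, plus strand) was the 1 member without a peak. No peak of either list overlapped it. The chain of peaks below it stopped 16.4 kb short of the gene in pair 1 and 13.3 kb short in pair 2. Above it, pair 2 had a 601 bp peak that started 3.53 kb past the gene (85713526 to 85714126, fold 2.39), and pair 1 had none in the region. The neighbouring A630001G21Rik (85717083 to 85736656), the other protein-coding gene of the region, was also free of peaks.

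**Figure D2:**
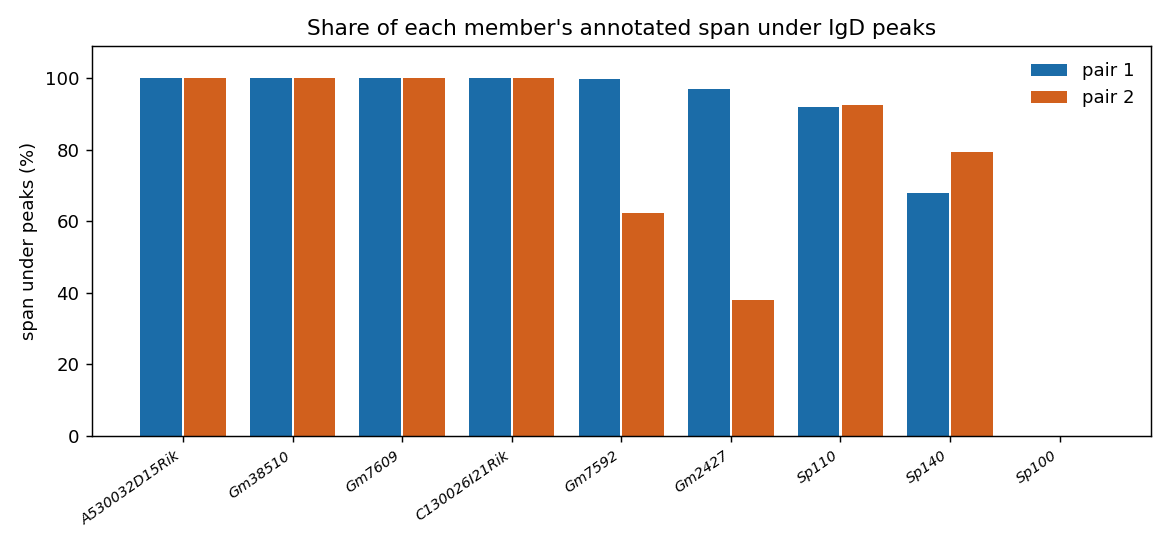
Percent of each member's annotated span under peaks, with members in chromosome order and 1 bar per pair. The first 4 members are at 100% in both pairs, Gm7592 and Gm2427 are lower in pair 2 (62.4% and 37.8%), and Sp100 is at 0 in both.

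In all, 8 of 9 members were overlapped by at least 1 bp in pair 1, where 6.28% of all protein-coding genes were. In pair 2, 8 of 9 were overlapped, where 33.8% of all such genes were, and 8 of 9 in both lists, where 4.43% were. Wholly inside peaks were 4 of 9 members in pair 1 against 0.795% of all protein-coding genes, 4 of 9 in pair 2 against 0.928%, and 4 of 9 in both lists against 0.455%. As the peaks themselves led to the choice of these genes, nothing is read from these shares.

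Peaks covered 81.2% of the region in pair 1, 70.5% in pair 2 and 68.9% in both lists. The region held 16.6 peaks per Mb in pair 1 and 13.9 in pair 2, where chromosome 1 as a whole held 4.62 and 16. Its peaks made up 34.9% of all covered bases of the chromosome in pair 1 and 13.1% in pair 2. Covered in pair 1 alone was 12.3%, in pair 2 alone 1.57%, and in neither 17.2%. Non-coding genes of the region mostly lay under these peaks as well. Of 7 pseudogenes in the region, 7 were overlapped in each list and 6 lay wholly inside the main block of both. The exception, Gm2666, was 98.8% covered in pair 1 and 46.0% in pair 2. Shares over all pseudogenes were not computed, so nothing is read from these counts. The long non-coding RNA gene A530040E14Rik lay wholly inside peaks in both lists, and the microRNA gene Mir8096 at the upper end had none.

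Summit positions coincided at few places. Of 13 pair 1 peaks, the 12 of the region and 1 below it, 4 had a pair 2 summit within 1000 bp, and the median distance to the nearest pair 2 summit was 3618 bp. Below the region, 1277 bp before its main block, pair 1 had a 38.0 kb peak (84955947 to 84993907, fold 7.42). The summit of this peak lay 229 bp from that of a 1064 bp peak of pair 2 (fold 5.13). Both summits fall in Gm15433. With this peak the pair 1 chain spanned 678 kb. Pair 2 had 3 further narrow peaks below the region and 1 above it, with folds of 2.43 to 5.68.

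Promoters of some members, though not of all, hold near-identical sequence. The genes were taken as a multi-copy cluster, so such likeness can follow from their choice and nothing is read from it. RefSeq windows on GRCm38.p6, from 250 bases before to 50 bases after a transcript start, were matched for 7 of the 9 members, with 2 windows each for Sp100 and Sp110; Gm38510 and Gm7592 were not matched. Apart from those of Gm2427 and Sp110, the windows fell into 2 groups of near copies. The first group is Sp140, A530032D15Rik and C130026I21Rik. Over 271 aligned bases, the windows of A530032D15Rik and Sp140 had 270 identical. Over 255 aligned bases, C130026I21Rik and Sp140 had 254 identical. A530032D15Rik and C130026I21Rik were identical over all 279 aligned bases, apart from a run of 12 bases that A530032D15Rik has and C130026I21Rik lacks.

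The windows of this group are printed 5′ to 3′ to show how alike the copies are. In Sp140 (chr1:85600453-85600752, plus strand) the capital is the base that differs from A530032D15Rik, in A530032D15Rik (chr1:85109804-85110103, minus strand) the capitals are the 12 bases without a partner in C130026I21Rik, and in C130026I21Rik (chr1:85270517-85270816, minus strand) the capital is the base that differs from Sp140.
Sp140: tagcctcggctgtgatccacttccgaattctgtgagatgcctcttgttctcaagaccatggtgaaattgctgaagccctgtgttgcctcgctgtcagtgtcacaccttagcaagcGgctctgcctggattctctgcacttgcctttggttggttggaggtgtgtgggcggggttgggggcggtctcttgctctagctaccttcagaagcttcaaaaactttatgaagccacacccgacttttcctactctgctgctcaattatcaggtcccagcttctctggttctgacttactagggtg
A530032D15Rik: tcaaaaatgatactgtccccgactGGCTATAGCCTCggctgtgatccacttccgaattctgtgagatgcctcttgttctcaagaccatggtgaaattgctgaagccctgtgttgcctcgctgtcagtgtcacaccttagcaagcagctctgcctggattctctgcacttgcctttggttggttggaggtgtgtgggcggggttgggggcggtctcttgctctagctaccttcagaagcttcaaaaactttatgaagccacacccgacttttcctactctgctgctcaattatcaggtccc
C130026I21Rik: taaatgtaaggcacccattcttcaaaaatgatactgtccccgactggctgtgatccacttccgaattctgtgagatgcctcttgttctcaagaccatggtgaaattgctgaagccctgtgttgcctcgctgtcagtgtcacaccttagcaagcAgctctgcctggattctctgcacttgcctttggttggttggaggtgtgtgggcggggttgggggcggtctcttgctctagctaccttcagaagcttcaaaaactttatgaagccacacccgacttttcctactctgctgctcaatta

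The second group joins a covered and an uncovered gene. The windows of Gm7609, inside the main block of both lists, and Sp100, without a peak in either, had 293 of 298 aligned bases identical. They lie about 450 kb apart and are shown because their sequences are near copies while their peak coverage differs. Capitals mark the 5 mismatched bases in Gm7609 (chr1:85199361-85199660, plus strand) and Sp100 (chr1:85649764-85650063, plus strand).
Gm7609: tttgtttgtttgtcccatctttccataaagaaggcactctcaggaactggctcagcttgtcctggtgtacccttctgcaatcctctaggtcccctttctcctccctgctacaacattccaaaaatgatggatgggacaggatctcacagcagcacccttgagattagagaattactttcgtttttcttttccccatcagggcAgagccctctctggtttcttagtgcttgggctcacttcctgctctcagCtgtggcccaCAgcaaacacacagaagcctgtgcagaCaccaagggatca
Sp100: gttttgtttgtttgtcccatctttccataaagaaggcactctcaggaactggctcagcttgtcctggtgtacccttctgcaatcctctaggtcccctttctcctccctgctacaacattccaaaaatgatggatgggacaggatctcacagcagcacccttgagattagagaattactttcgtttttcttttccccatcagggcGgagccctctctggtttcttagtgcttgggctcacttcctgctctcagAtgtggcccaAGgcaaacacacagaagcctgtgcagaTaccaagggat

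**Figure D3:**
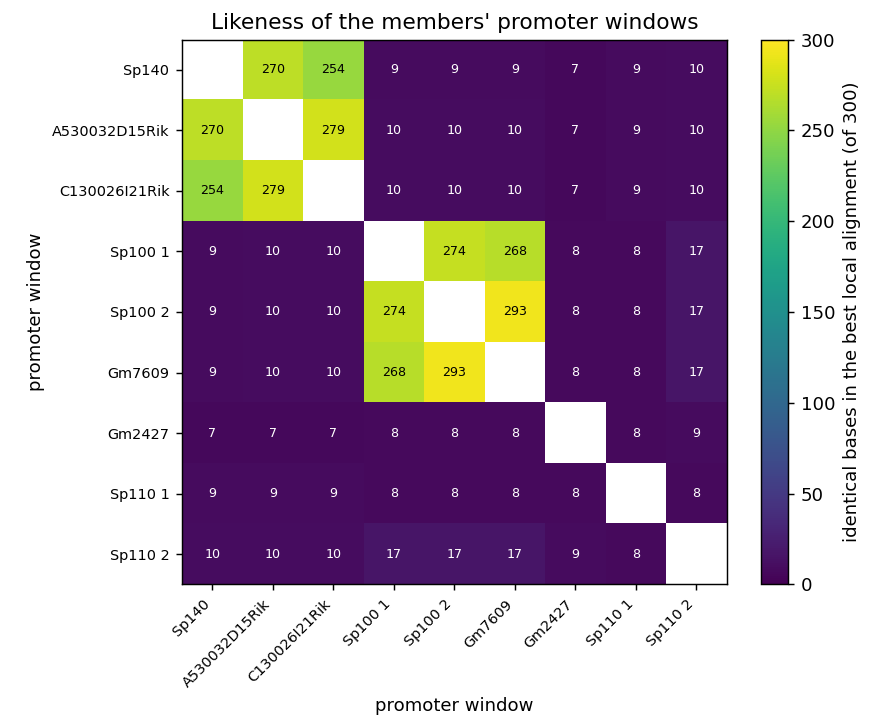
Identical bases in the best local alignment of each pair of member promoter windows, out of 300, with 2 windows (1 and 2) for Sp100 and for Sp110. The bright blocks are Sp140 with A530032D15Rik and C130026I21Rik (254 to 279 identical bases) and Sp100 with Gm7609 (268 and 293); the 2 Sp100 windows overlap on the chromosome.

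Gm2427 and Sp110 did not belong to these groups. No other pairing of different members reached more than 17 identical bases. The upstream Sp110 window (85603842 to 85604141) shared 66.2% of its 20-base words with promoter windows of other genes, while its downstream window (85598761 to 85599060) and that of Gm2427 shared 0.

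In pair 1, 6 members had a window wholly inside a peak, and in pair 2, 5 members had one, without Gm2427. Of all windows, 1.12% lay wholly inside peaks of pair 1 and 2.2% inside those of pair 2. The Sp140 window lay under a 3888 bp peak in pair 1 (85600140 to 85604027, fold 3.37) and under a 19186 bp peak in pair 2 (85584120 to 85603305, fold 5.24). The downstream Sp110 window lay under peaks of fold 7.16 in pair 1 and 5.24 in pair 2. The upstream Sp110 window was 62.0% covered in pair 1 and uncovered in pair 2.

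The 2 interferon-related spellings searched for were not found in the members' windows. An interferon-stimulated response element core, spelled as GAAA, any 2 bases and GAAA on either strand, was in 0 of 9 member windows, where 3.44% of all 32851 windows held it. A gamma-activated sequence, spelled as TTC, any 3 bases and GAA, was in 0 of 9 as well, where 8.30% of all windows held it. With 9 windows, some of them near copies, 0 is near both shares, so nothing is read from it. The windows are short, and the search says only that these letters are not in them. Other spellings of such motifs were not searched.

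Shared promoter sequence was common in very wide peaks in general, with those of the cluster counted in. Over the whole table, 5.51% of windows had at least 50% of their 20-base words also present in 1 or more windows of other genes. In the cluster, 7 of 9 member windows, from 6 members, did. Of the windows wholly inside peaks of 20000 bp or wider, 181 of 223 did in pair 1 (81.2%) against 4.99% of windows outside such peaks. In pair 2, 185 of 235 did (78.7%) against 4.98%. Member windows wholly inside such peaks numbered 4 in pair 1, of which Gm2427 shared 0, and 3 in pair 2. Among the 7 member windows with shared words, those of Sp100 overlap each other. The upstream Sp110 window matched windows of genes outside the cluster. How reads that match several copies were placed is not given in the sources used here, and the part of shared sequence in the blocks was not tested.

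Among all peaks, the main blocks stood near the top of their lists. By fold, the pair 1 block ranked 3 of 11375 and the pair 2 block 2 of 40628. By width they ranked 4 and 14. The list maxima were a fold of 23.2 and a width of 737286 bp in pair 1, and a fold of 36.5 and a width of 1113203 bp in pair 2. Peaks of 20000 bp or wider numbered 293 in pair 1, with a median width of 39676 bp and a median fold of 5.06, and 318 in pair 2, with a median width of 37354 bp and a median fold of 6.03. The cluster region held 2 of them in each list. Such peaks wholly covered 159 protein-coding genes in pair 1 and 174 in pair 2, of which 4 were members in each case.

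**Figure D4:**
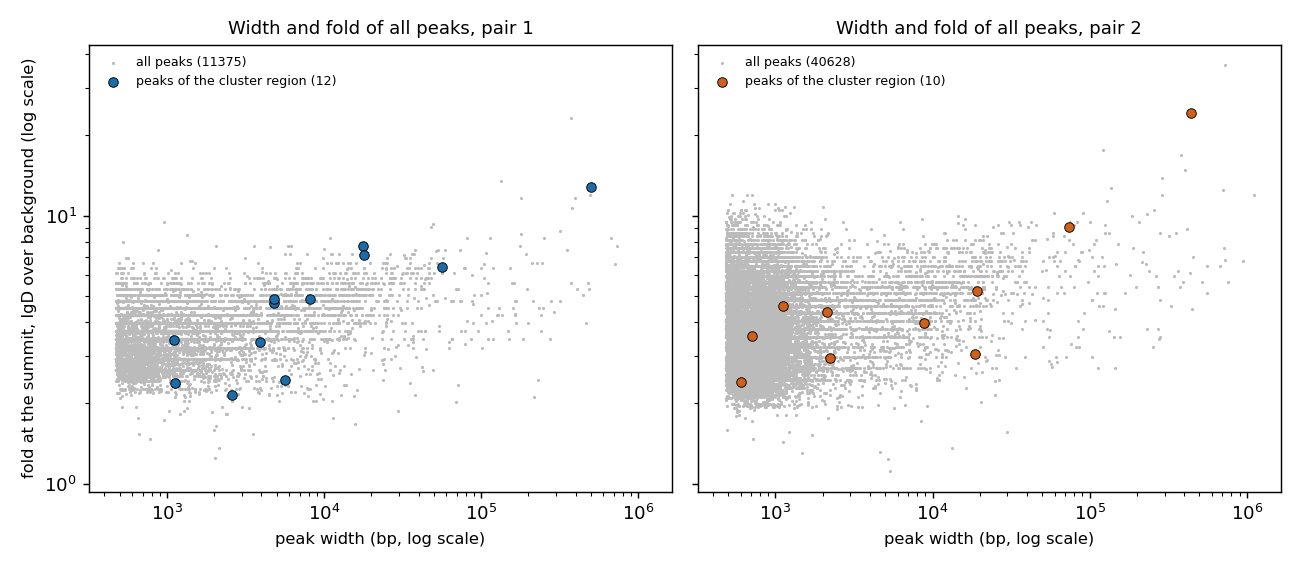
Width in bp and fold at the summit of every peak, on log scales, with pair 1 left and pair 2 right; grey points are all peaks and coloured points the 12 and 10 peaks of the cluster region. The main block of each list lies at the upper right (505 kb, fold 12.8 in pair 1 and 442 kb, fold 24.1 in pair 2). By fold, the other peaks of the region ranked 20 to 11326 of 11375 in pair 1. In pair 2 they ranked 129 to 39515 of 40628.

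Across all peaks of the region, fold ranged from 2.15 to 12.8 in pair 1, with a median of 4.79, and from 2.39 to 24.1 in pair 2, with a median of 4.17. All peaks of the lists had medians of 3.46 and 3.78. A fold of at least 5 was reached by 4 of 12 region peaks in pair 1, where 7.30% of all peaks did, and by 3 of 10 in pair 2, where 19.1% did. A -log10 q of at least 5 was reached by 8 of 12 in pair 1, where 16.5% of all peaks did, and by 7 of 10 in pair 2, where 38.8% did.

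Fragment numbers were solved from fold and p to show the depth behind these values, on the assumption that IgD fragments were not scaled by the peak caller. The pair 1 block had 115 IgD fragments at its summit (95% exact Poisson interval 94.9 to 138, counting error only) over a background of 8.05. The pair 2 block had 88 fragments (70.6 to 108) over a background of 2.70. The higher fold of the pair 2 block thus went with fewer IgD fragments and a lower background. Other peaks of the region had 15 to 48 fragments in pair 1 and 13 to 35 in pair 2.

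Background was raised at many peaks of the cluster. The commonest background over a list was 2.76 fragments in pair 1 and 2.70 in pair 2. More than 2 times that level stood behind 7 of 12 region peaks in pair 1 (58.3%), where 2.61% of all peaks had it, and behind 5 of 10 in pair 2 (50%), where 3.19% had it. The highest region value in pair 1 was 13.5, at the 3888 bp peak over the Sp140 promoter window, where 48 IgD fragments (35.4 to 63.6) gave a fold of only 3.37. In pair 2 the highest was 8.81, at the 18724 bp peak in Sp110 and Sp140 (fold 3.06).

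**Figure D5:**
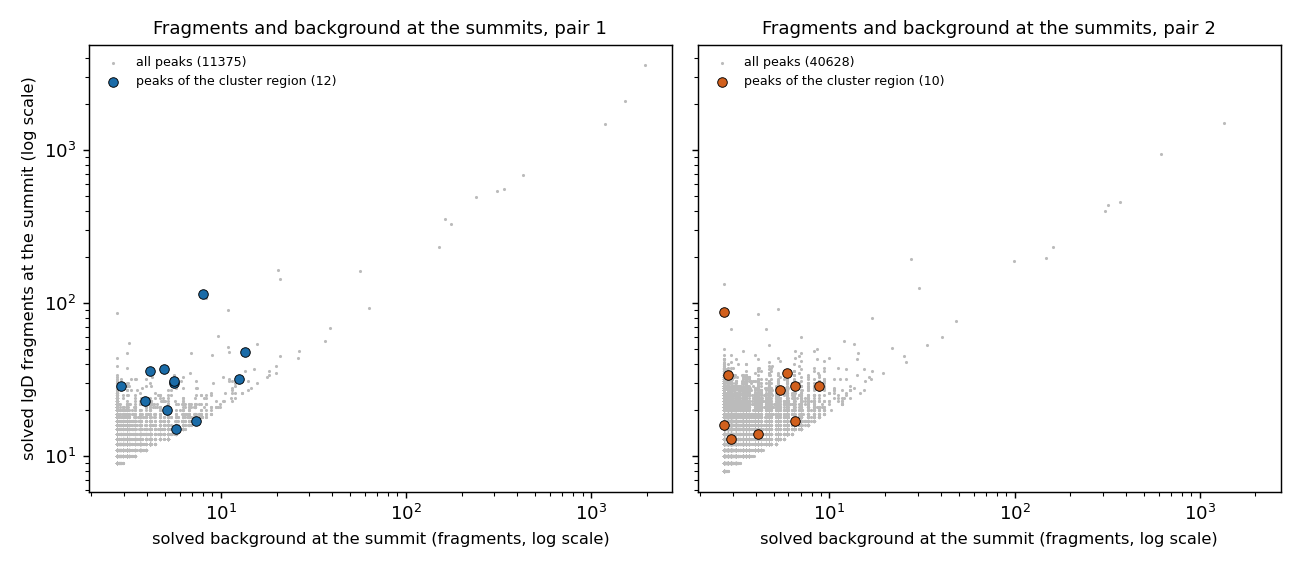
IgD fragments and background solved at each summit, both in fragments on log scales, with pair 1 left and pair 2 right; grey points are all peaks and coloured points those of the cluster region. The main block is the highest coloured point of each panel (115 fragments over 8.05 in pair 1, 88 over 2.70 in pair 2), and region backgrounds reach 13.5 in pair 1 and 8.81 in pair 2.

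The genes of related function elsewhere in the genome that had a peak had only narrow ones, of 480 to 1035 bp. The median width of all peaks was 856 bp in pair 1 and 774 bp in pair 2, so such widths are usual in these lists. Of 20 PML nuclear body genes, 3 were overlapped in pair 1, 8 in pair 2 and 1 in both, and 0 lay wholly inside a peak. The background shares for overlap were 6.28%, 33.8% and 4.43%. For whole coverage they were 0.795% in pair 1 and 0.928% in pair 2, so 0 of 20 is near them. These genes are longer than most, with a median of 40.1 kb against 17.2 kb for all protein-coding genes. The gene overlapped in both was Hipk2, a kinase gene, at different positions (fold 2.66 in pair 1, up to 4.33 in pair 2). Daxx, a histone H3.3 chaperone gene, was overlapped in pair 1 (fold 2.93). In pair 2 the others were Blm, Pias1, Cabin1, Sumo3, Trp53, Usp7 and Morc3, with folds of 2.70 to 4.87.

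Of 11 SAND-domain or PHD-finger relatives, 0 were overlapped in pair 1, where 6.28% of all protein-coding genes were, and 5 in pair 2 (45.5%), where 33.8% were. Their median length was 36.7 kb, also above the 17.2 kb of all such genes. The 5 were Trim33, Trim28, Trim66, Deaf1 and Phf11b, with folds of 3.15 to 6.15, the highest at Trim66. No peak at these genes was wider than 1035 bp, and no more than 8.30% of any of the 5 genes was covered.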

How the data were processed

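Peak lists came from 4 libraries of sorted pro-B cells, 2 IgD and 2 IgG, grouped by antibody and paired by the number in their titles, as the description labels do. Per the submitters' processing notes, HISAT2, MACS2 and ChIPseeker were used with build mm10. Versions and settings, including the treatment of multiply mapped reads and any scaling of the libraries, were not given in the sources used here. Fold enrichment (a ratio) and the -log10 p and -log10 q values were deposited by the authors. Both lists reach down to a q near 0.05 (-log10 q of 1.31 and 1.30).

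The 9 genes and the gene lists were chosen with earlier results of these data known. Genes came from RefSeq on GRCm38.p6, the assembly mm10 names, with 49997 genes; 348 on unassembled scaffolds and 54 mitochondrial or unplaced genes were left out, which left 49595. All 9 members, other genes of the region and peak-bearing genes of the PML and relatives lists are named, except 1 gene that is not reported here. Overlap was at least 1 bp. No test was made, as there is 1 list per pair. Fragments were solved from fold = (fragments + 1) / (background + 1) and p as a Poisson upper tail; all peaks were solved within 0.01 of the deposited -log10 p. Read totals were not used here. Proteins were not analysed here. Promoter windows were aligned with Biopython, locally and not globally as planned, since copies start at shifted positions (match 1, mismatch -2, gap opening -4, extension -1). Coverage and fragment routines were tested on simulated data. Alternatives were stricter q and fold limits, equal list lengths, other overlap rules and flanks, and each pair alone. Python 3.11.15, numpy 2.4.6, pandas 2.3.3, scipy 1.17.1, Biopython 1.88 and matplotlib 3.10.9 were used.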

Additional observations from a re-analysis of the deposited data

How the results depend on the processing

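Of 75 alternative values for 13 results, 66 stayed within 1.5 times the count, or within 1 SD of the 2 pairs for coverage and fold. Counts, coverage and fold have no direction, so none could be reversed. Some values could not move either. Limiting pair 2 leaves the pair 1 results as they are, and limits on q or fold keep the strongest peak. The tally is therefore no measure of stability. Members counted by a summit inside their span, instead of any overlap, numbered 4 in pair 2 and 4 in both lists, against 8 by overlap, because the pair 2 block has a single summit, outside the genes. With a fold of at least 5, the peaks in the region fell to 4 in pair 1 and 3 in pair 2; with pair 2 limited to as many of its strongest peaks as pair 1 holds, to 5 in pair 2. Over a wider stretch, which adds flanking sequence on both sides, a limit added after the data were seen, coverage was 55.6% in pair 1, 47.8% in pair 2 and 46.6% in both, as more uncovered sequence was included. With only 1 pair at a time, coverage in both lists (68.9%) became 70.5% to 81.2%, the members overlapped stayed at 8 and those wholly inside at 4. The member counts by overlap were 7 to 8 under the q, fold, list length, 50% and 3000 bp alternatives. No paired analysis was possible because the results come from no test, with 1 peak list for each pair. At 13 to 17 fragments, as at the weakest region peaks, fold is imprecise.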

Other observations

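Further peaks lay on unlocalised sequences that mm10 assigns to chromosome 1, for which no gene positions were used: 41 in pair 1 and 38 in pair 2. On GL456211 the widest peak spanned 135 kb in pair 1 (33059 to 167575, fold 13.4) and 101 kb in pair 2 (11193 to 112183, fold 9.47). The pair 1 value exceeds the fold of the main Sp100-like block in that list, 12.8. On GL456221 the pairs differed: pair 1 had a 51.6 kb peak (fold 7.38) among 6 peaks that covered 64.0 kb, and pair 2 had 5 peaks that covered 3.66 kb, the widest 964 bp (fold 3.05). On GL456210 no peak was wider than 3711 bp in pair 1 or 10660 bp in pair 2. Whether these sequences hold copies of the cluster was not tested.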
